A study of Mus musculus with 6 samples.

Results

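The collapsin response mediator proteins (CRMPs) and the membrane-bound growth cone proteins GAP43, BASP1, MARCKS, MARCKSL1 and neuritin were followed in the olfactory epithelium of newborn mice. All probe sets annotated with exactly 1 gene symbol, that symbol being Crmp1, Dpysl2, Dpysl3, Dpysl4, Dpysl5, Gap43, Basp1, Marcks, Marcksl1 or Nrn1, were taken. The rule gave 25 of the 45037 probe sets on the array, for 10 of the 18193 genes with such a probe set. The samples were 3 wild-type pups and 3 pups labelled mutant, each 1 day old, each on a background mixed from C57Black6/J and 129SvJ, and each hybridised to its own array. The series title asks for targets of KLF7, a zinc finger transcription factor of neurons; the labels name no allele, and they do not say whether pups shared a litter. The labels name whole olfactory epithelium as the tissue, with no sorting of cells.

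A growth cone is the motile tip of a growing axon, and olfactory sensory neurons, which are replaced throughout life, keep sending new axons to the olfactory bulb. CRMPs are cytosolic proteins that bind tubulin and relay signals of the repellent semaphorin 3A; kinases such as CDK5 and GSK3 phosphorylate them and release them from microtubules. GAP43, BASP1 and the MARCKS proteins sit on the inner face of the plasma membrane, where they bind acidic lipids, calmodulin and actin filaments, and protein kinase C regulates GAP43 and MARCKS. In this epithelium GAP43 is the classical marker of immature neurons, lost as they mature.

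Markers of the labelled tissue were read above the dim filter. Of 12 genes of mature olfactory neurons fixed as a list, 9 had a probe set. All 9 were bright enough to test, among them Omp and the olfactory channel subunit Cnga2, as were 12703 of all 18193 genes. Klf7 itself was lower in the mutant on all 4 of its probe sets without overlap between the groups. The log2 difference was -2.15 at the brightest, 1449439_at (SE 0.520), and largest at 1419354_at, at -3.06 (SE 0.541). The limma adjusted p of each was 1 over all 20967 probe sets tested. The arrays numbered 3 stood apart from the other 4 on the first principal component, with 129 for wild-type array 3 and 72.3 for mutant array 3 against -55.3 to -44.8.

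The test across all probe sets called none of the 10 genes as different between the genotypes. Klf7, at log2 differences from -2.15 to -3.06 over its probe sets, was not called either, so a missing call does not show an unchanged level. Log2 intensities were fitted with limma, and two-sided p-values were adjusted by the Benjamini-Hochberg method across every probe set tested, with a threshold of 0.05. It called 0 of the 20 member probe sets bright enough to test, against 0% of all 20967 probe sets, and the adjusted p of each was 1. Without adjustment, 0 of the 20 had a p below 0.05, against 0.501% of all. That share of all is far below what a threshold of 0.05 gives when nothing differs. The unadjusted limma p-values may therefore lean high, and why was not tested. The 95% interval of the difference included 0 for the brightest probe set of each of the 10 genes. At the brightest probe sets, the largest differences were in Crmp1, Gap43 and Nrn1, each lower in the mutant. Marcks and Marcksl1 lay within 0.05 of 0 on the log2 scale at their brightest probe sets.

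**Figure D1:**
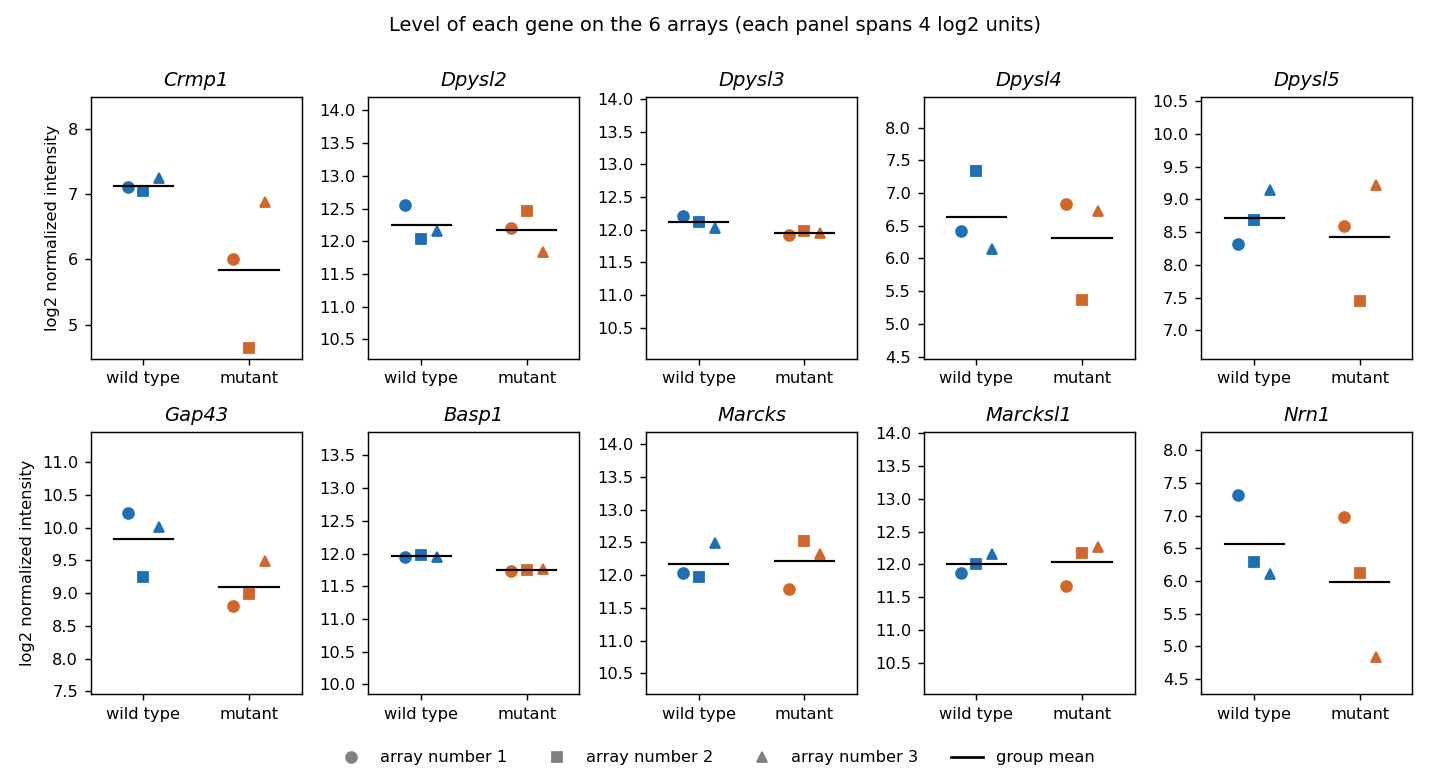
Log2 normalized intensity of the brightest probe set of each gene on each of the 6 arrays (blue, wild type; orange, mutant; the symbol gives the array number and the line the group mean of 3 arrays), with the same span of 4 log2 units in each panel. Crmp1 has 3 close wild-type arrays and a wide mutant group from 4.64 to 6.89, whereas the Basp1 and Dpysl3 groups are narrow and set apart by 0.20 and 0.17.

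Crmp1, a CRMP made mainly in neurons, was measured by 1 probe set, 1448289_at. Its log2 level was 7.10, 7.05 and 7.24 on wild-type arrays 1, 2 and 3, and 6.01, 4.64 and 6.89 on mutant arrays 1, 2 and 3. The wild-type arrays were close together, each mutant array lay below all of them, and mutant array 2 was far the lowest. The means were 7.13 ± 0.10 and 5.85 ± 1.13 (SD, n = 3 each), a difference of -1.28 (SE 0.675, 95% interval -2.76 to 0.20), or 2.43-fold lower, with a limma unadjusted p of 0.0827 and an adjusted p of 1. Without mutant array 2 the difference was -0.68, and without mutant array 3 it was -1.83. Blocking on the replicate number gave an unadjusted p of 0.0348 and an adjusted p of 1 (limma). That block also raised the count of all probe sets at an unadjusted p under 0.05 from 105 to 281. With 1 array left out the unadjusted limma p for Crmp1 ran from 0.0321, without mutant array 3, to 0.27, without mutant array 2.

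Dpysl2 encodes CRMP2, the member best known for binding tubulin dimers and promoting axon formation. Its bright probe set 1433770_at read 12.56, 12.04 and 12.15 on the wild-type arrays and 12.20, 12.47 and 11.84 on the mutant arrays. The groups overlapped, with wild-type array 1 the highest and mutant array 3 the lowest, and the difference was -0.08 (SE 0.20, 95% interval -0.52 to 0.36). A dim probe set for this gene, 1450502_at, differed by 0.37 in the other direction (SE 0.417) and was too dim to test.

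Dpysl3 encodes CRMP4, a member abundant in newborn neurons. At 1454613_at its levels were 12.21, 12.11 and 12.03 in the wild type and 11.92, 11.98 and 11.95 in the mutant. These groups did not overlap but nearly met, and the difference was -0.17 (SE 0.149, 95% interval -0.49 to 0.16; limma, unadjusted p = 0.283, adjusted p = 1). A dimmer probe set, 1415877_at, read 7.34, 6.94 and 8.03 against 7.43, 5.77 and 6.80. There mutant array 1 lay within the wild-type range, and the difference was -0.77 (SE 0.597). On 1438789_s_at, too dim to test and at the floor on 2 arrays, the difference was -1.11 (SE 0.598). There the same-number pairs did not have 1 direction, with -1.51, -2.08 and 0.25 for numbers 1, 2 and 3.

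Dpysl4 and Dpysl5 encode CRMP3 and CRMP5, the latter the most distant member of the family. Dpysl4 at 1418298_s_at read 6.43, 7.34 and 6.14 in the wild type and 6.83, 5.37 and 6.73 in the mutant. Dpysl5 at 1449290_at read 8.33, 8.69 and 9.14 in the wild type and 8.60, 7.45 and 9.21 in the mutant. In both genes mutant array 2 was the lowest of the 6 arrays and the other 2 mutant arrays lay above wild-type array 1. The differences were -0.32 (SE 0.656) for Dpysl4 and -0.30 (SE 0.477) for Dpysl5. Without mutant array 2 both turned, to 0.14 and 0.19. The dim probe sets of Dpysl4 differed by -0.40 at 1418297_at and by 0.18 at 1418299_at, each at the floor on 3 arrays, and that of Dpysl5 by -0.19.

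Of the 5 CRMP genes, 5 had a lower mutant mean at the brightest probe set, with a median difference of -0.30, against 52.6% of all 12703 genes and a median over all genes of -0.02. This is a count of directions, not of tested changes. Mutant array 2 was the lowest of the 6 arrays for 3 of the 5, Crmp1, Dpysl4 and Dpysl5. This was not particular to the family. It also held for the neuronal genes Stmn2, Ina, Uchl1 and L1cam, though not for Snap25 or Nsg1. The share of all genes lowest on this array was not counted. Mutant array 2 had the highest deposited total of the 6, 14439788, and its normalized levels of these 3 CRMP genes were not at the floor. Its Crmp1 level of 4.64 was still low, below the 5.19 used as the dim limit for means. The deposited Crmp1 value there was 30.4, against a median of 61.6 on that array. Whether anything in that pup or library moved the levels of these genes was not tested.

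Promoter windows, 250 bases before to 50 after a RefSeq start on GRCm38.p6, were at hand for 4 of the 10 genes, as 5 windows. Those of Crmp1 and Basp1 are printed because both genes separated the groups at their brightest probe sets after quantile normalization. A further reason is that KLF proteins are known to bind CACCC boxes and GC boxes. Marcksl1, whose window is not printed, separated the groups only at 1437226_x_at, with the mutant higher. Capitals mark CACCC and GGGCGG on either strand, the reverse strand appearing as GGGTG and CCGCCC; matches of the 2 motifs do not share letters in these 3 windows, but GC boxes can run into each other.
Crmp1, first start, chr5:37241808-37242107, plus strand: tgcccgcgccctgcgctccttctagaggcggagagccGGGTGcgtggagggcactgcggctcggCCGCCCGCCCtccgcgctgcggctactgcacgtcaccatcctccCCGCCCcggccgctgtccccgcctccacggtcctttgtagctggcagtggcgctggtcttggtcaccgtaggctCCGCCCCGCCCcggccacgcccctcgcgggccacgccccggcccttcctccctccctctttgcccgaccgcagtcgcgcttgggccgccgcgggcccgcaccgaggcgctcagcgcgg
Crmp1, second start, chr5:37245514-37245813, plus strand: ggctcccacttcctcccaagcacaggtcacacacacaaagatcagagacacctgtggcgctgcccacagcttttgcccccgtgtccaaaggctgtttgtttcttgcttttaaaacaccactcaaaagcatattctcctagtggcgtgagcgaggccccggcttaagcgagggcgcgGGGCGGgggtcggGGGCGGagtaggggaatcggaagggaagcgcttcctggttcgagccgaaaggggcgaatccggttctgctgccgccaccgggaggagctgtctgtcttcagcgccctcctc
Basp1, chr15:25413715-25414014, minus strand: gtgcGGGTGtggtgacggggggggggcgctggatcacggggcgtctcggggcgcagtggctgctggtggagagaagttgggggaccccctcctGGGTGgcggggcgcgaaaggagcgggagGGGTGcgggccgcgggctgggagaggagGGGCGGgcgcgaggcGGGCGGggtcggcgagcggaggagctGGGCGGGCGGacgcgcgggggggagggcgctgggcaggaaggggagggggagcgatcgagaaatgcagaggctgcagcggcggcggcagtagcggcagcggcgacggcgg
The first Crmp1 window held 1 CACCC box and 5 GC boxes, the second 0 and 2, and the Basp1 window 3 and 4. Over all 32851 windows of this length, 57.5% held at least 1 CACCC box and 35.7% at least 1 GC box, and 9.3% and 10.7% held 3 or more. The windows of Dpysl5 (1 CACCC box and 1 GC box) and Marcksl1 (2 and 2) also held both. The base composition of the first Crmp1 window was 77.0% G and C and that of Basp1 78.0%, against a median of 52.7%. How many matches that composition alone would give was not tested, and a match of letters is not a binding site.

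Gap43, the growth cone protein that protein kinase C phosphorylates during axon growth, was measured by 1 probe set, 1423537_at. Its levels were 10.22, 9.25 and 10.002 on wild-type arrays 1, 2 and 3, and 8.81, 8.99 and 9.49 on mutant arrays 1, 2 and 3. Wild-type arrays 1 and 3 lay above all mutant arrays, and wild-type array 2 lay below mutant array 3, so the groups overlapped through 1 array. The means were 9.82 ± 0.51 and 9.10 ± 0.35 (SD, n = 3 each), 1.66-fold lower in the mutant, with a difference of -0.73 (SE 0.344, 95% interval -1.48 to 0.03; limma, unadjusted p = 0.0573, adjusted p = 1). Over the settings in which 1 array was left out the difference ran from -1.02, without wild-type array 2, to -0.52, without wild-type array 1. The same model blocked on the replicate number gave an unadjusted p of 0.0496 and an adjusted p of 1 (limma). The unadjusted limma p for Gap43 was 0.174 with array medians set equal. With 1 array left out it ran from 0.0117, without wild-type array 2, to 0.21, without wild-type array 1.

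Basp1 encodes a myristoylated membrane protein that, like GAP43, gathers the lipid that anchors actin at the membrane. At 1428572_at its levels were 11.95, 11.97 and 11.95 in the wild type and 11.73, 11.75 and 11.77 in the mutant. Within each group the 3 arrays were nearly identical, and every mutant array lay below every wild-type array. The SD was 0.0118 in the wild type and 0.0186 in the mutant, and the difference was -0.20, or 1.15-fold lower. The pooled SD of 0.0156 was the smallest of all 20967 probe sets tested; 272 probe sets of similar brightness had a median of 0.204. Limma draws such a variance towards that of similarly bright probe sets, so the SE was 0.152, the unadjusted p 0.203 and the adjusted p 1.

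The narrow Basp1 groups depended on the normalization. The deposited intensities, before arrays were brought to 1 distribution, were 4379, 4219 and 3032 in the wild type and 3688, 3850 and 3051 in the mutant. There both arrays numbered 3 were low and the groups overlapped. The same was true of Dpysl3 at 1454613_at, with 5178, 4660 and 3225 against 4221, 4452 and 3503. Gap43 went the other way: its deposited intensities of 1293, 663 and 790 in the wild type all exceeded the 466, 609 and 604 of the mutant. Crmp1 separated on either scale, with 125, 140 and 137 against 53.2, 30.4 and 108.

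Marcks and Marcksl1 encode a pair of related substrates of protein kinase C that crosslink actin and shed from the membrane when phosphorylated. Marcks was read by 7 probe sets, all tested, whose differences ran from -0.21 at 1430311_at, the dimmest, to 0.15 at 1437034_x_at, with -0.00023 at 1456700_x_at. The brightest, 1456028_x_at, read 12.03, 11.97 and 12.49 in the wild type and 11.79, 12.52 and 12.32 in the mutant, a difference of 0.05 (SE 0.214, 95% interval -0.42 to 0.52). Marcksl1 was read by 4 probe sets, all tested, whose differences ran from -0.18 to 0.18. The brightest, 1435627_x_at, read 11.87, 12.01 and 12.16 in the wild type and 11.66, 12.18 and 12.26 in the mutant, a difference of 0.02 (SE 0.190, 95% interval -0.39 to 0.44). A second Marcksl1 probe set, 1437226_x_at, was higher in every mutant array, at 11.79, 12.00 and 12.00 against 11.73, 11.77 and 11.74, with a difference of 0.18 (SE 0.157; limma, unadjusted p = 0.265, adjusted p = 1). Another, 1435415_x_at, differed by -0.18. Probe sets with the ending x_at are of the array maker's class whose probes can also match other sequences.

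Nrn1 encodes neuritin, a lipid-anchored surface protein that neuronal activity and neurotrophins induce and that promotes neurite growth. Its single probe set, 1428393_at, read 7.31, 6.29 and 6.11 in the wild type and 6.98, 6.12 and 4.84 in the mutant. The groups overlapped, with wild-type array 1 the highest and mutant array 3 the lowest. The difference of -0.59 (SE 0.718, 95% interval -2.17 to 0.98; limma, unadjusted p = 0.426) became -0.02 without mutant array 3 and -1.08 without mutant array 1.

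**Figure D2:**
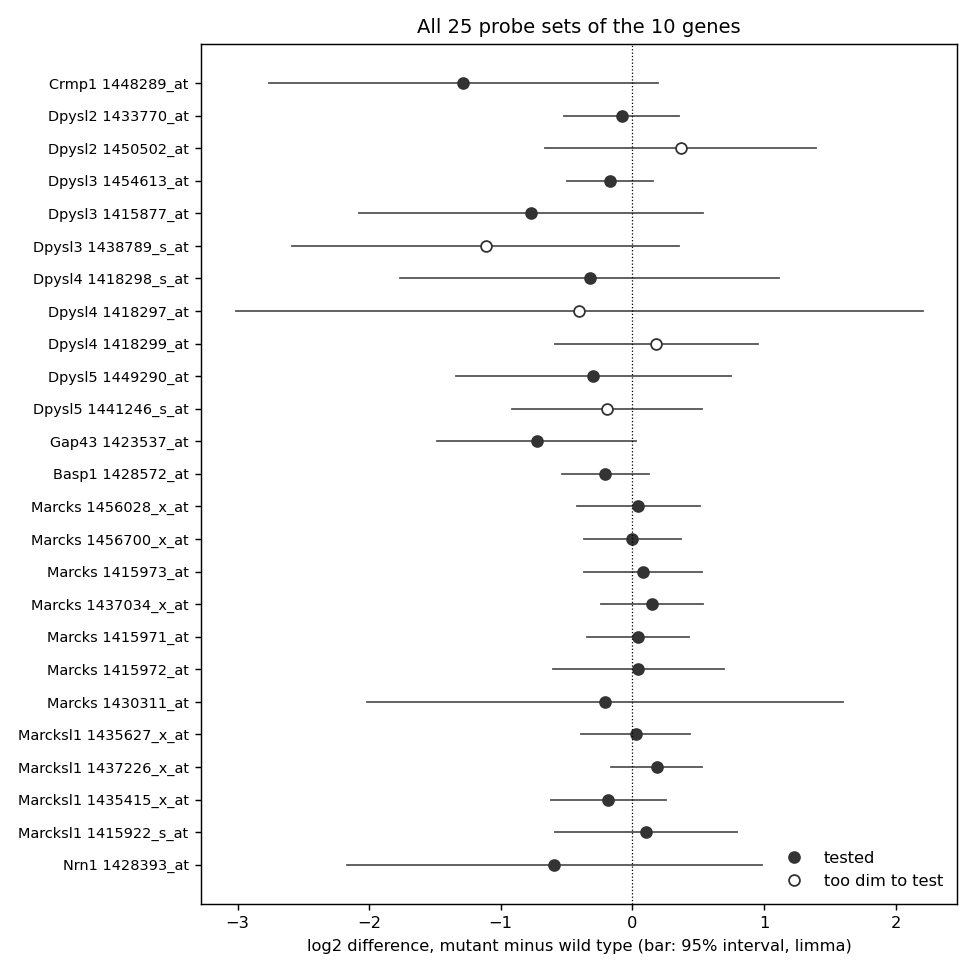
Log2 difference, mutant minus wild type, for all 25 probe sets of the 10 genes, with 95% intervals from limma; filled points were tested and the 5 open points were too dim to test. Every interval includes 0, and the intervals of the bright Marcks, Marcksl1, Dpysl2 and Basp1 probe sets are narrower than those of Crmp1, Dpysl4 and Nrn1.

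Across all 25 probe sets 15 had a lower mutant mean and 10 a higher one, with a median difference of -0.17. Among the 20 tested, which cover all 10 genes, 12 were lower, against 53.1% of all probe sets tested. Groups did not overlap and the mutant was lower for 3 of the 20, namely Crmp1, Dpysl3 at 1454613_at and Basp1, or 15% against 1.71% of all; the mutant was higher for 1, Marcksl1 at 1437226_x_at, against 0.935%. With array medians set equal, and likewise with the deposited values, 2 probe sets were lower without overlap, Crmp1 and Gap43, against 0.792% and 1.35% of all probe sets in those settings. Probe sets of 1 gene share their target and are not independent. The members were chosen with earlier results of these data known, so their shares beside those of all probe sets are descriptive only. Without both arrays numbered 3 the difference was -1.835 for Crmp1, -0.84 for Gap43, -0.83 for Dpysl4, -0.50 for Dpysl5 and -0.27 for Nrn1, and limma called 0 of the members.

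The 5 genes Dpysl2, Dpysl3, Basp1, Marcks and Marcksl1 were read at 11.66 to 12.56 on the log2 scale at their brightest probe sets, where the highest normalized value of any probe set was 13.16. Whether signal near the top of the scale compressed their differences was not tested. Brightness is not comparable between genes, since each probe set binds with its own strength.

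The labels number the pups of each group, and arrays with the same number varied together, so the differences within same-number pairs were taken as well. Crmp1 differed by -1.09, -2.41 and -0.35 within pairs 1, 2 and 3. For Gap43 the values were -1.41, -0.26 and -0.51. Basp1 gave -0.22, -0.22 and -0.18, and Dpysl3 -0.29, -0.13 and -0.08. Nrn1, whose groups overlapped, was also lower within each pair, at -0.33, -0.17 and -1.28. These 5 of the 10 genes were lower in each of the 3 pairs and 0 were higher in each. By probe sets, 6 of the 20 tested were lower in each pair, or 30%, against 9.76% of all tested. Higher in each pair was 1, against 6.18%. Crmp1, Dpysl3 at 1454613_at and Basp1, whose groups did not overlap, would be lower in any pairing. The pair count therefore partly repeats the count of groups without overlap. Dpysl4 and Dpysl5 were lower within pair 2 alone, at -1.97 and -1.23.

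**Figure D3:**
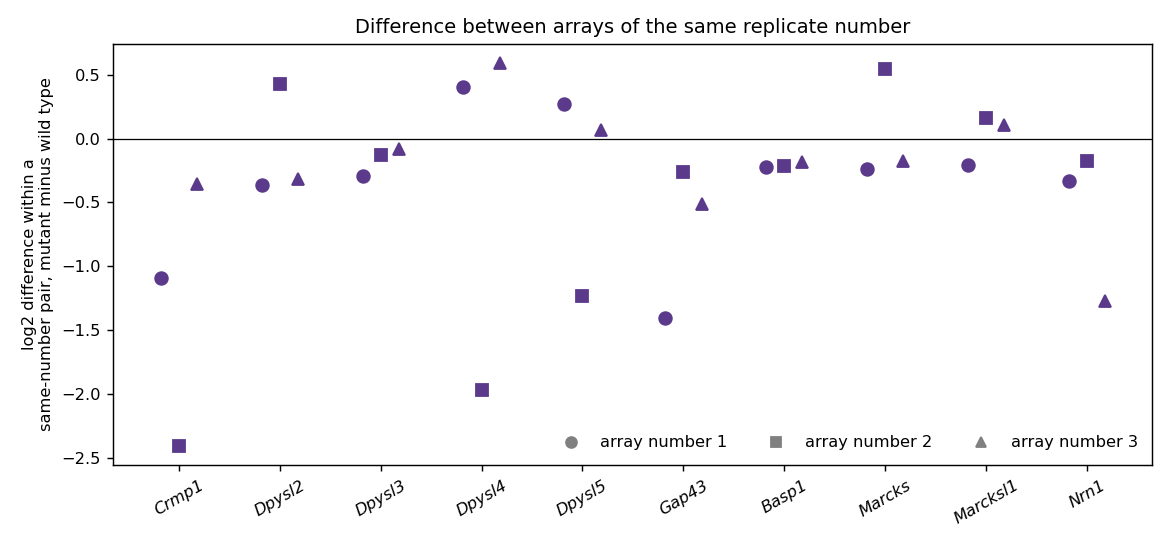
Log2 difference, mutant minus wild type, between the 2 arrays of the same replicate number, for the brightest probe set of each gene (circle, square and triangle for numbers 1, 2 and 3). Crmp1, Dpysl3, Gap43, Basp1 and Nrn1 lie below 0 in each pair, and Dpysl4 and Dpysl5 lie below 0 only in pair 2.

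Most genes of the mature neuron and pan-neuronal lists also had lower mutant means, though limma called 0 of them, with 5 in each list at an unadjusted p under 0.05. Of the 9 mature neuron genes tested 8 were lower in the mutant, with a median of -0.86, and their summed normalized intensity was 6472 to 8412 in the wild type and 4026 to 4805 in the mutant. Of 12 pan-neuronal genes, all tested, 11 were lower, with a median of -0.88 and sums of 12514 to 15149 against 9407 to 9605. Neither sum overlapped between the groups. The lists were chosen with earlier results of these data known, so these counts and sums are not separate evidence. Genes of immature neurons and progenitors, without the 10 growth cone genes, did not show this: 6 of 10 tested were lower, the median was -0.01, and the sums were 13037 to 14336 against 13847 to 14368. The members' own median of -0.25 at their brightest probe sets lay between these. In whole tissue, fewer neurons and less RNA per neuron cannot be told apart, and the part of neuron content in the Crmp1 and Gap43 differences was not tested.

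Several of the genes are also made outside neurons, among them Marcks and Marcksl1, so other cell types were followed. Sums of 11 sustentacular and gland genes were 18634 to 27719 in the wild type and 24626 to 26326 in the mutant, with 10 of 11 tested genes higher. Basal and squamous genes varied most, at 1733 to 8958 against 3301 to 7539, with 7 of 9 tested higher. Glial genes gave 3546 to 4643 against 4347 to 4449, with 6 of 8 tested higher, and fibroblast, vessel and blood cell genes 13542 to 18222 against 15573 to 16513, with 7 of 10 higher. Of 9 genes of central neurons on the array, 6 were too dim to test, including the cortical and olfactory bulb markers Tbr1, Neurod6, Slc17a7, Eomes and Tbx21, and Tbx21 was at the floor on all 6 arrays. Their sums were 2531 to 3438 against 2936 to 3629, nearly all from Bcl11b, which is not confined to the brain. None of these 5 lists separated the groups by its sum, and limma called 0 genes in any marker list.

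**Figure D4:**
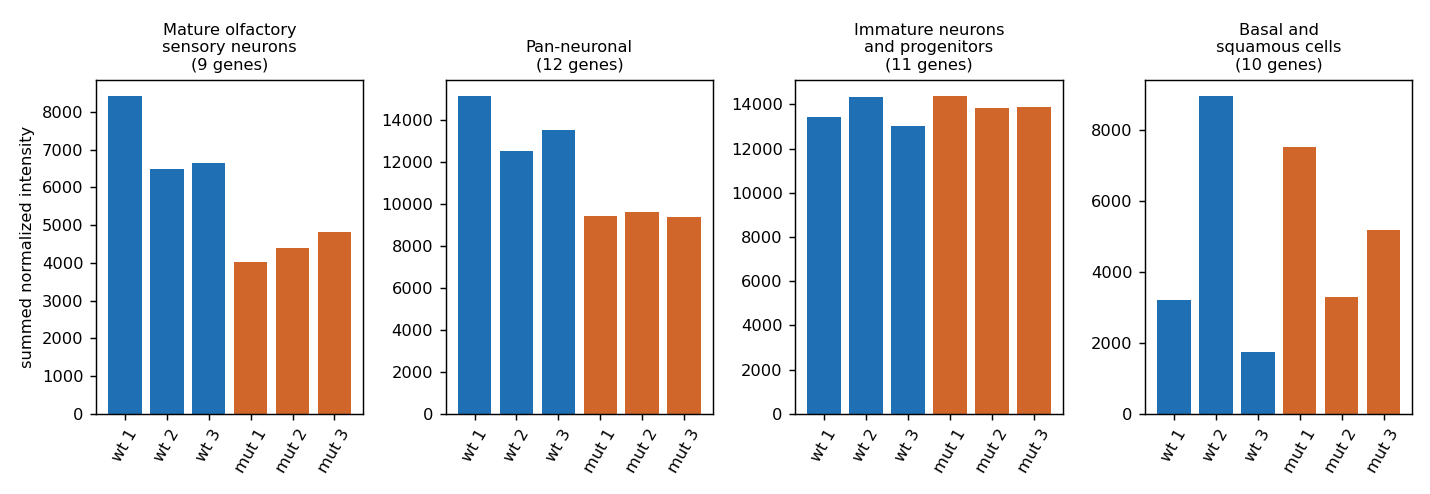
Summed normalized intensity of 4 marker lists on each array (wild type in blue, mutant in orange, bars from 0). The lists were chosen with earlier results of these data known. The mature neuron and pan-neuronal sums are lower on every mutant array, the immature neuron sums lie between 13037 and 14368 on all 6 arrays, and the basal and squamous sums are highest on wild-type array 2.

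Partners of the CRMPs were described from a list of 29 genes of semaphorin 3A signalling, CRMP kinases and CRMP cargo, of which 27 were on the array and 25 were tested. Limma called 0 of them; 14 were lower and 11 higher, with a median of -0.06. Cacna1b, the N-type calcium channel that CRMP2 binds, had the smallest p, with a wild-type mean of 7.92 ± 0.43 and a mutant mean of 6.21 ± 0.81 (SD, n = 3 each); the difference was -1.71 (SE 0.578; limma, unadjusted p = 0.0126, adjusted p = 1). The adhesion molecule L1cam, a coreceptor for semaphorin 3A, differed by -1.44 (SE 0.515). For both genes every mutant array lay below every wild-type array. Klc1, a kinesin light chain that carries CRMP2 to axon tips, differed by -0.66 (SE 0.356), and the CRMP kinase Gsk3b by 0.28 (SE 0.203).

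Kinases, phosphatases and partners of GAP43, BASP1 and MARCKS were listed as 25 genes, with 21 on the array and 18 tested. Limma called 0; 13 were lower and 5 higher, with a median of -0.15. The 4 of smallest p were the kinase Prkce (0.49, SE 0.398), the G protein subunit Gnao1, which GAP43 activates (-0.42, SE 0.40), the calcineurin subunit Ppp3ca (-0.18, SE 0.195) and the myristoyl transferase Nmt2 (-0.18, SE 0.225). All 4 overlapped between the groups.

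Other growth cone proteins, mostly actin regulators, were listed as 28 genes, with 27 on the array and 26 tested. They split evenly, 13 lower and 13 higher, with a median of 0.001, and limma called 0. Tmod2, the neuronal tropomodulin that caps actin filaments, differed by -1.04 (SE 0.395; limma, unadjusted p = 0.0223, adjusted p = 1). Cend1, a membrane protein of differentiating neurons, differed by -1.40 (SE 0.621; limma, unadjusted p = 0.0442, adjusted p = 1). For Tmod2 and Cend1 every mutant array lay below every wild-type array. Kalrn, which regulates the neurite cytoskeleton, was higher on every mutant array, by 0.47 (SE 0.266), and the actin elongation factor Vasp differed by 0.46 (SE 0.396). Groups did not overlap for 2 of the 26 with the mutant lower and for 1 with the mutant higher. The shares of all probe sets tested were 1.71% and 0.935%.

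The profiles most like those of Gap43 and Crmp1 were sought among the brightest probe sets of 12693 other genes, by the root mean square difference of log2 values centred on their mean over the 6 arrays. For Gap43 these were Scd3, Gprin3, St8sia6, Gpr85 and Pbk, at 0.121 to 0.188, against a median of 0.701 over all genes. For Crmp1 they were Stx1a, Prmt2, B3gnt8, Tmprss6 and Man2c1, at 0.142 to 0.303. Among the members themselves the closest profiles were those of Dpysl3 and Basp1, at 0.0578, and of Marcks and Marcksl1, at 0.14. The measure is not scaled by spread, so profiles that vary little lie close whatever their shape. The pooled SD was only 0.0679 for Dpysl3 and 0.0156 for Basp1. Gap43 and Crmp1 were 0.674 apart; Gap43 was lowest on mutant array 1 and Crmp1 on mutant array 2.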

How the data were processed

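The values deposited by the authors are linear intensities, 1 for each probe set on each array, from arrays hybridised with amplified, biotin-labelled cDNA, per the labels. Probe set summarization, background correction and scaling are not given in the sources used here, and 5.39% of the values were 0. Quartiles differed between the 6 arrays by up to 0.69 on the log2 scale, more than 0.1, so arrays were quantile normalized; values below the 20th percentile (12.56) were set to it before log2 was taken. Of 45037 probe sets, 34945 carried 1 gene symbol in the platform annotation, 932 several and 9160 none; only the first entered. Those with a mean in the lowest 40%, below 5.19, were left out as dim, which left 20967.

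Mutant and wild type were compared with limma 3.58.1 (R 4.3.3; lmFit, eBayes with trend), two-sided, with Benjamini-Hochberg adjustment. The script was tested on simulated data. The number of arrays, 3 per group, limits the precision. Dim member probe sets have a difference and SE from the same model without the filter. A gene is represented by its brightest probe set, with others named where they differ in sign or by over 0.5. Up to 4 genes per pathway list, those of smallest p, and the 5 profiles most like Gap43 and Crmp1 were named. Members and lists were chosen with earlier results of these data known.

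Deviations from group means of arrays with the same label number correlated at 0.488, 0.225 and 0.576 across probe sets, each over 0.1, which was taken as pairing, although wild-type array 2 also correlated with mutant array 1, at 0.183, and a fit with that number as a block was an alternative. With it, limma called 0 probe sets, with 281 at an unadjusted p under 0.05 against 105 without it. Other alternatives changed the dim filter, normalization, floor, variance model, array weights, choice of probe set and arrays included.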

Additional observations from a re-analysis of the deposited data

How the results depend on the processing

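Limma called 0 probe sets, and 0 of those of the 10 genes, in the main setting and under all 17 alternatives; the replicate block changed no call. The count of probe sets at an unadjusted p under 0.05, 105, was 61 with array medians set equal, 189 with array weights, 281 with the replicate block, 377 without the dim filter, 177 without both arrays numbered 3, and 111 to 321 when 1 array was left out (185, 321 and 204 without wild-type arrays 1, 2 and 3). The 3 member probe sets lower without overlap became 5 without both arrays numbered 3 and 3 to 5 when 1 array was left out, beside 11.4% and 3.78% to 6.91% of all probe sets. Crmp1, Dpysl3, Gap43, Basp1 and Nrn1 kept their direction under all 17, but not their size: with no further normalization Basp1 was at -0.12 and Dpysl3 at -0.0806, and with the mean of probe sets Dpysl3 was at -0.68. Dpysl2 was at 0.14 with the mean of probe sets, 0.0326 without both arrays numbered 3, and -0.24 to 0.0806 when 1 array was left out. Marcksl1 was at -0.0101 with array weights, -0.0163 without both arrays numbered 3, and -0.0895 to 0.20 when 1 was left out. With 1 array left out, Marcks ran from -0.11 to 0.26, Dpysl4 from -0.59 to 0.14 and Dpysl5 from -0.70 to 0.19, the last 2 turning without mutant array 2 and Dpysl4 also without wild-type array 2 (0.02). The cause was not tested. The median over all probe sets tested stayed within 0.1 of 0 in each setting. Values near the floor understate differences.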
